A study of Mus musculus with 3 samples.

Results

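Oncostatin M and interleukin 6 family signaling was followed through 9 genes, *Osm*, *Il6*, *Lif*, *Osmr*, *Il6ra*, *Il6st*, *Lifr*, *Stat3*, and *Socs3*, of the 27998 genes in the deposited count matrices. The genes were chosen by symbol, and each was counted in cell classes of bone marrow, blood, and an injured tendon. All 3 libraries came from 10-week-old male C57BL/6J mice 3 days after burn/tenotomy, a model of trauma-induced heterotopic ossification in which a burn of the back is combined with full transection of the Achilles tendon. No library of an uninjured animal was analysed here, so every value describes injured animals. Each tissue had 1 library, and how many mice were pooled for it could not be read from the labels or methods. Marrow was flushed from femurs, and blood cells were taken from the mononucleated layer of a density gradient, so blood neutrophils are those that stayed with mononuclear cells. The tendon site alone was digested with collagenases and dispase at 37°C. Tissue, preparation, and library therefore cannot be told apart, and no test was run.

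Cytokines of this family act through a shared signaling chain, gp130, encoded by *Il6st*. Oncostatin M (*Osm*) binds gp130 together with its own receptor chain (*Osmr*), leukemia inhibitory factor (*Lif*) binds gp130 with *Lifr*, and interleukin 6 (*Il6*) first binds the receptor *Il6ra*, which is found on the cell surface or shed in soluble form, and then gp130. Receptor engagement activates Janus kinases, which phosphorylate STAT3, and STAT3 induces *Socs3*, an inhibitor that binds gp130 and the kinases and ends the signal. In injured tissue the family is known for communication between leukocytes and connective tissue cells.

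Levels are given in CPM, the number of unique molecular identifiers (UMIs, a count of captured mRNA molecules) of the gene per 1000000 UMIs of the cell class. Exact Poisson 95% intervals stand in parentheses, and all intervals cover counting error only. The kept cells numbered 1813 from marrow, 2146 from blood, and 4780 from tendon, and 7769 of these 8739 cells fell in clusters that could be named from marker genes. The 24 classes with at least 20 cells are written with "-like" because markers alone named them. The marrow held promyelocyte-like cells with *Elane* and *Prtn3*, and the tendon held tenocyte-like cells with *Tnmd* and *Comp*. The median depth of a class ranged from 3850 UMIs per cell in tendon mature neutrophil-like cells to 39643 in tendon keratinocyte-like cells. Between 1 and 6 cell barcodes were shared by a pair of libraries. UMIs come from the 3′ ends of transcripts, so levels of different genes were not ranked against each other.

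*Osm* was a leukocyte transcript in every tissue, and the classes that held the most of its UMIs differed between libraries. Such shares depend on which cells each preparation kept and on their depth. In marrow, neutrophil-like cells held 84.6% of all *Osm* UMIs (95% Clopper-Pearson interval 80.8 to 87.9) and were 56.3% of the cells. In blood they held 53.9% (48.2 to 59.6) and were 18.2% of the cells. At the tendon site the monocyte-like cells held 44.0% of *Osm* UMIs and the macrophage-like cells 34.9%. The gene lies at chr11:4236420-4241026 on the plus strand (GRCm38, GENCODE M21, as all gene positions here), next to *Lif* at chr11:4257557-4272514.

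The highest *Osm* level among the 24 classes was in blood basophil or mast cell-like cells, 34 cells with a median of 6612 UMIs that expressed *Cpa3*, *Mcpt8*, *Ms4a2*, and *Fcer1a*. They held 69 UMIs, at 309.6 CPM (240.9 to 391.8), spread over 22 cells with at most 11 in 1 cell. Although only 1.58% of blood cells, they held 22.4% (17.9 to 27.5) of blood *Osm* UMIs. The next level in order was that of tendon monocyte-like cells, at 109.8 (103.6 to 116.3), and its interval did not overlap either neighbor in the order. Tendon macrophage-like cells followed at 62.7 (58.7 to 66.9), and tendon mature neutrophil-like cells at 62.0 (51.6 to 73.8), with overlapping intervals. With the 20 most abundant genes left out of the totals these 2 levels were 81.8 and 111.0, and that of tendon monocyte-like cells was 139.3. The clusters of tendon macrophage-like cells ranged from 54.6 to 72.1, and unnamed tendon clusters held a further 14.5% of *Osm* UMIs.

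Outside the tendon, monocyte-like cells had almost no *Osm*. The level was 2.55 CPM (1.67 to 3.74) in marrow monocyte-like cells and 3.27 (2.05 to 4.96) in blood monocyte-like cells, which is close to the 4.19 (2.79 to 6.06) of blood T cell-like cells. Some classes of the tendon stroma were lower still. Fibroblast-like cells had 14 UMIs at 0.553 CPM (0.302 to 0.927), and keratinocyte-like cells were at 0.511 (0.139 to 1.31). Endothelial cell-like cells were at 1.17 (0.559 to 2.15), an interval that overlapped those of marrow and blood monocyte-like cells. Schwann cell-like and tenocyte-like cells had 0 UMIs, which allows up to 4.09 and 3.14 CPM.

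**Figure D1:**
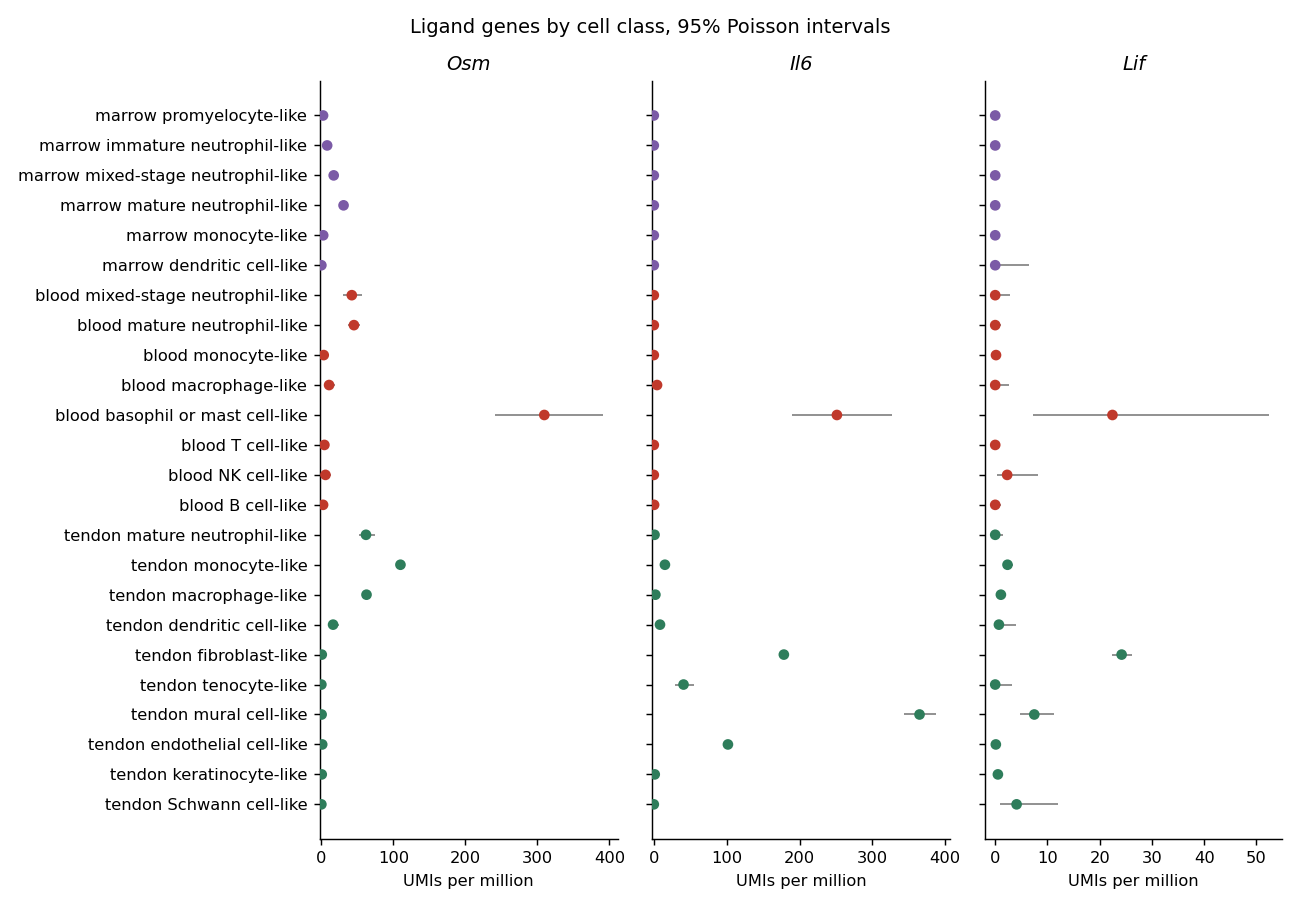
*Osm*, *Il6*, and *Lif* in CPM (UMIs per 1000000, x axis, linear, each panel with its own range) for the 24 cell classes (y axis), with marrow in purple, blood in red, and tendon in green, and bars for 95% Poisson intervals. *Osm* peaked in blood basophil or mast cell-like cells (309.6) and tendon monocyte-like cells (109.8), whereas *Il6* peaked in tendon mural cell-like cells (364.7) and *Lif* in tendon fibroblast-like cells (24.2), beside a blood basophil or mast cell-like value (22.4) that rested on 1 cell.

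*Il6* had nearly the opposite distribution at the tendon site. Stromal classes, taken here as fibroblast-, tenocyte-, endothelial cell-, mural cell-, Schwann cell-, and keratinocyte-like cells, held 95.9% (95.4 to 96.3) of tendon *Il6* UMIs and were 27.9% of the cells. Mural cell-like cells, the contractile cells of vessel walls, had 364.7 CPM (343.2 to 387.2), with 119 of their 1073 UMIs in 1 cell and 327.8 CPM without it. Fibroblast-like cells had 178.5 (173.3 to 183.8), endothelial cell-like cells 101.7 (95.1 to 108.7), and tenocyte-like cells 40.8 (29.0 to 55.8), and none of these intervals overlapped. Schwann cell-like cells had 0 UMIs of *Il6*, which allows up to 4.09 CPM.

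The endothelial value came from 1 of 2 clusters. The cluster led by the capillary and venous genes *Gpihbp1*, *Plvap*, and *Selp* had 870 *Il6* UMIs at 110.0 CPM (102.8 to 117.5). The cluster led by the lymphatic genes *Ccl21a*, *Prox1*, and *Lyve1* had 2 UMIs at 3.02. The fibroblast-like clusters were closer to each other. *Il6* was at 170.9 (164.8 to 177.1) in the cluster led by *Crabp1*, *Cxcl5*, and *Il1rl1* and at 196.4 (186.5 to 206.6) in the cluster led by *Cilp* and *Aspn*, with intervals that did not overlap.

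Leukocytes had little *Il6*, with exceptions in basophil or mast cell-like cells and in a cluster of tendon monocyte-like cells. In marrow none of the named classes had an *Il6* UMI, although 28 UMIs lay in an unnamed cluster led by *Car2*, *Cpa3*, and *Mcpt8*. In blood, basophil or mast cell-like cells held 56 of the 62 *Il6* UMIs, at 251.3 CPM (189.8 to 326.3), and 14 of these 34 cells held both *Il6* and *Osm*. When each cell was named on its own, 14 tendon cells fell in this class, fewer than the 20 asked of the 24 classes. They had 41 *Il6* UMIs at 746.2 CPM (535.5 to 1012), in 7 cells with at most 10 in 1 cell. *Osm* had 13 UMIs in the 14 cells, at 236.6 (126.0 to 404.6). The 12 marrow cells of this class had 21 *Il6* UMIs at 151.1 (93.5 to 230.9) but only 3 *Osm* UMIs at 21.6 (4.45 to 63.1), against 318.3 for *Osm* in the 31 blood cells named in this way. Among the tendon monocyte-like clusters, the one led by *Plac8*, *Ly6c2*, and *Chil3* had 132 *Il6* UMIs in 56 cells, at 31.8 CPM (26.6 to 37.7), and the other 2 had 4.57 and 4.67.

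*Lif* was mostly a fibroblast transcript in these libraries. Fibroblast-like cells held 88.7% (86.1 to 91.0) of tendon *Lif* UMIs, at 24.2 CPM (22.3 to 26.2). The cluster led by *Crabp1* and *Cxcl5* had 28.2 (25.8 to 30.8) and the cluster led by *Cilp* and *Aspn* had 14.7 (12.1 to 17.7). Marrow had 0 *Lif* UMIs in all of its named classes, and blood had 8 UMIs, 5 of them in 1 basophil or mast cell-like cell.

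Differences in depth change the share of cells in which a gene is seen, so cells were also thinned to 1000 UMIs each. Before thinning, *Osm* was seen in 51.8% of tendon monocyte-like cells (median 10881 UMIs), 3.55% of blood monocyte-like cells (17268 UMIs), and 1.52% of tendon fibroblast-like cells (35632 UMIs), a class that served as the background for free RNA. After thinning these shares were 8.92% (7.21 to 10.9), 0.473% (0.0573 to 1.70), and 0.152% (0.00384 to 0.843). The order was the same, and 5 tendon monocyte-like cells were too shallow to be thinned. *Il6* was seen in 72.7% of fibroblast-like and 2.03% of tendon macrophage-like cells before thinning, and in 14.0% (11.4 to 16.8) and 0.280% (0.0578 to 0.816) after it, with 0 and 14 cells left out.

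The promoters of both stromal ligands are shown because *Il6* and *Lif* were high in the same class and each contains a match to TGANTCA, the binding motif of AP-1 transcription factors (both strands searched). The motif was found in 6.75% of 32851 RefSeq promoter windows of 250 bases before the transcription start (RefSeq, GRCm38.p6), and the match is in capitals. The 100 bases that begin 250 bases before the start are given 5′ to 3′, at chr5:30012864-30012963 (plus strand) for *Il6* and chr11:4257318-4257417 (plus strand) for *Lif*. These are matches of letters and not measured binding.
Il6: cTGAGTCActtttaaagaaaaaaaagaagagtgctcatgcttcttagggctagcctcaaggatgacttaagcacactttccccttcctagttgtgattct
Lif: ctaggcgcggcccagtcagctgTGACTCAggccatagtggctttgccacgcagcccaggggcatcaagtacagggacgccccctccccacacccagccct

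The transcript of the receptor chain for oncostatin M was found almost only outside the leukocytes. *Osmr* (chr15:6813577-6874969, minus strand) had 0 UMIs in every named class of marrow and blood. Its largest upper limit there was 13.5 CPM, in basophil or mast cell-like cells, and its smallest 0.223, in marrow immature neutrophil-like cells. At the tendon site the stromal classes held 2650 of the *Osmr* UMIs, or 99.0% (98.5 to 99.3), and the immune classes 13.

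Among the stromal classes, *Osmr* was 86.7 CPM (76.4 to 98.0) in mural cell-like cells, 70.1 (54.3 to 89.0) in tenocyte-like cells, and 67.1 (64.0 to 70.4) in fibroblast-like cells. The interval of tenocyte-like cells overlapped both others, and those of mural cell-like and fibroblast-like cells did not overlap. Endothelial cell-like cells followed at 50.4 (45.8 to 55.4), keratinocyte-like cells at 24.4 (21.0 to 28.1), and Schwann cell-like cells at 5.45 (1.49 to 14.0). Unlike *Il6*, *Osmr* was present in both endothelial clusters, at 48.9 (44.2 to 54.1) in the capillary and venous cluster and 67.9 (49.5 to 90.9) in the lymphatic one. After thinning, *Osmr* was seen in 5.77% (4.11 to 7.83) of fibroblast-like cells and 0.187% (0.0226 to 0.673) of tendon macrophage-like cells, against 75.6% and 0.737% before.

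**Figure D2:**
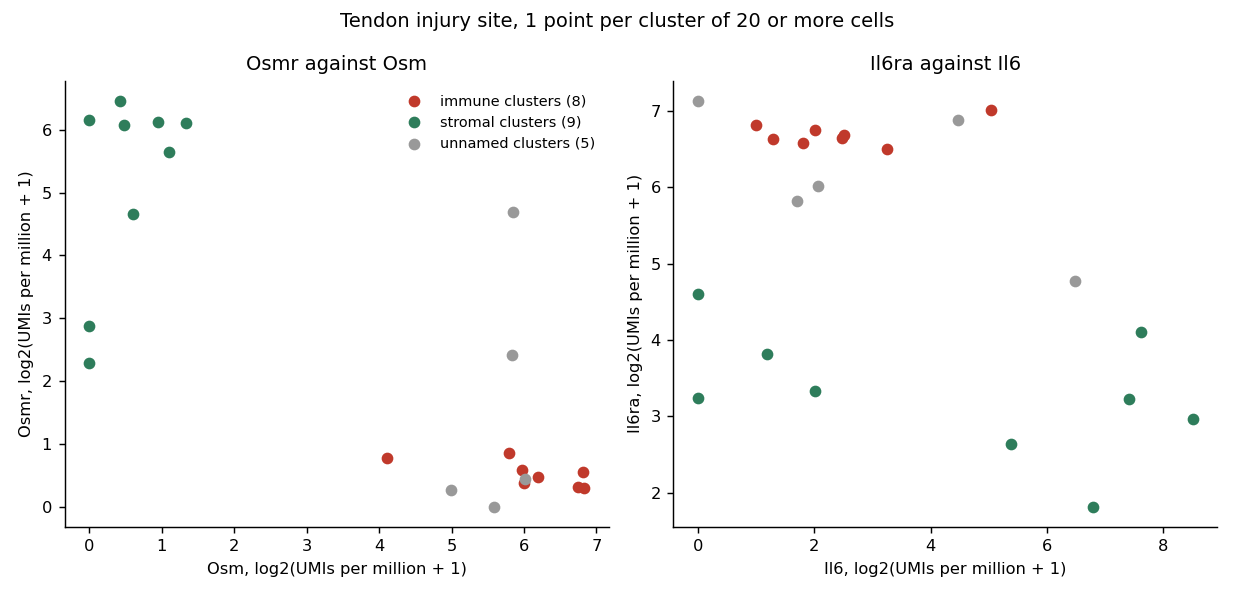
Each point is a tendon cluster with at least 20 cells, 8 of immune classes (red), 9 of stromal classes (green), and 5 unnamed (gray), and the axes are log2(CPM + 1). *Osm* and *Osmr* occupied separate clusters (left), and *Il6* and *Il6ra* did so less completely (right), with the highest *Il6* in mural cell-like cells (364.7 CPM), whose *Il6ra* level was 6.80.

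*Il6st*, the gp130 chain that all of these receptors share, was highest in the stroma and was close to 0 in neutrophils. It lies at chr13:112464070-112510086 on the plus strand. Fibroblast-like cells had 276.6 CPM (270.2 to 283.1), mural cell-like cells 238.6 (221.3 to 256.9), endothelial cell-like cells 182.3 (173.4 to 191.6), and keratinocyte-like cells 18.9 (16.0 to 22.2). The fibroblast-like cluster led by *Cilp* and *Aspn* reached 368.0 (354.4 to 381.9), against 237.7 (230.6 to 245.0) in the cluster led by *Crabp1* and *Cxcl5*. Monocyte-like cells had 64.6 (59.8 to 69.8) in marrow, 40.8 (36.1 to 45.9) in blood, and 20.8 (18.1 to 23.7) at the tendon site. T cell-like cells of blood had 52.0 (46.7 to 57.8).

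Neutrophil-like cells carried *Il6ra* with hardly a count of its signaling partner. Marrow immature and mixed-stage neutrophil-like cells and blood mixed-stage cells had 0 *Il6st* UMIs. Mature neutrophil-like cells had 1 UMI in marrow, 1 in blood, and 4 at the tendon site, the last at 1.98 CPM (0.540 to 5.08). In the same cells *Il6ra* had 506, 439, and 225 UMIs. Blood basophil or mast cell-like cells and NK cell-like cells were similar to neutrophils in *Il6st*, with 0 and 3 UMIs, but they also had few *Il6ra* UMIs, 2 and 1.

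With all genes in the totals, *Il6ra*, which binds interleukin 6 itself, was highest in blood monocyte-like, blood mature neutrophil-like, and marrow monocyte-like cells. It was also present in macrophage-, dendritic cell-, and T cell-like cells. The gene lies at chr3:89864059-89913196 on the minus strand and overlaps the antisense gene *Gm42809*. Blood monocyte-like cells had 207.5 CPM (196.7 to 218.7), blood mature neutrophil-like cells 162.8 (147.9 to 178.8), and marrow monocyte-like cells 154.4 (146.8 to 162.2). Without the most abundant genes in the totals this order could differ, as that of *Socs3* did (below). Blood macrophage-like cells followed at 115.3 (96.3 to 137.0), with an interval that overlapped that of tendon monocyte-like cells at 111.6. Blood T cell-like cells had 86.9 (80.0 to 94.3), with 39.5 in the cluster led by *Cxcr6* and *Cxcr3* and 127.1 in the cluster led by *Ikzf2* and *Foxp3*. The *Il6*-rich stromal classes were at the low end, with 10.7 in fibroblast-like, 6.80 (4.15 to 10.5) in mural cell-like, and 3.03 (1.98 to 4.44) in endothelial cell-like cells.

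*Lifr*, the receptor chain for LIF, was unlike the others in its cells. It lies at chr15:7090614-7197489 on the plus strand. Its highest level, 349.2 CPM (297.4 to 407.6), was in 39 marrow dendritic cell-like cells led by *Siglech*, *Ccr9*, and *Bst2*, genes of plasmacytoid dendritic cells, where 37 cells had a UMI. Although 2.15% of marrow cells, they held 33.3% (29.1 to 37.7) of marrow *Lifr* UMIs, and 33.3% (19.1 to 50.2) of them still showed *Lifr* after thinning, against 2.51% (1.15 to 4.71) of marrow monocyte-like cells. Tendon dendritic cell-like cells, which were led instead by *Cd209a* and class II genes, had 30.4 (22.0 to 41.0).

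Among the other leukocytes, *Lifr* was highest in the monocyte and macrophage classes. Tendon macrophage-like cells had 79.8 (75.3 to 84.5), and their clusters differed, with 124.9 (116.3 to 134.0) in the cluster led by *Cd163*, *Folr2*, and *Mrc1*, 48.6 (42.8 to 55.0) in the cluster led by *Pf4* and *Il10*, and 43.5 (36.7 to 51.3) in the cluster led by interferon-induced genes. In both marrow and tendon the monocyte-like clusters were also unequal, at 54.4 and 18.0 in marrow and 65.0, 45.7, and 26.0 at the tendon site. Blood T cell-like, NK cell-like, and mature neutrophil-like cells had 0 *Lifr* UMIs, whereas B cell-like cells had 32 UMIs in 15 cells, at 12.7 (8.71 to 18.0).

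Cells with a UMI of both genes of a receptor pair can be counted directly, although depth limits such counts and no receptor protein was measured. *Osmr* and *Il6st* were both seen in 489 of 659 fibroblast-like cells (74.2%), in 80 of 103 mural cell-like cells (77.7%), and in 153 of 287 endothelial cell-like cells (53.3%). *Lifr* and *Il6st* were both seen in 214 fibroblast-like cells (32.5%) and 126 endothelial cell-like cells (43.9%). *Il6ra* and *Il6st* were both seen in 221 of 359 marrow monocyte-like cells (61.6%), 172 of 423 blood monocyte-like cells (40.7%), and 120 of 992 tendon monocyte-like cells (12.1%), classes whose median depths were 23260, 17268, and 10881 UMIs. *Il6* and *Osmr* were both seen in 394 fibroblast-like cells (59.8%) and 64 mural cell-like cells (62.1%). At 1000 UMIs per cell these shares lay between 0% and 1.82%, too low to rank the classes.

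**Figure D3:**
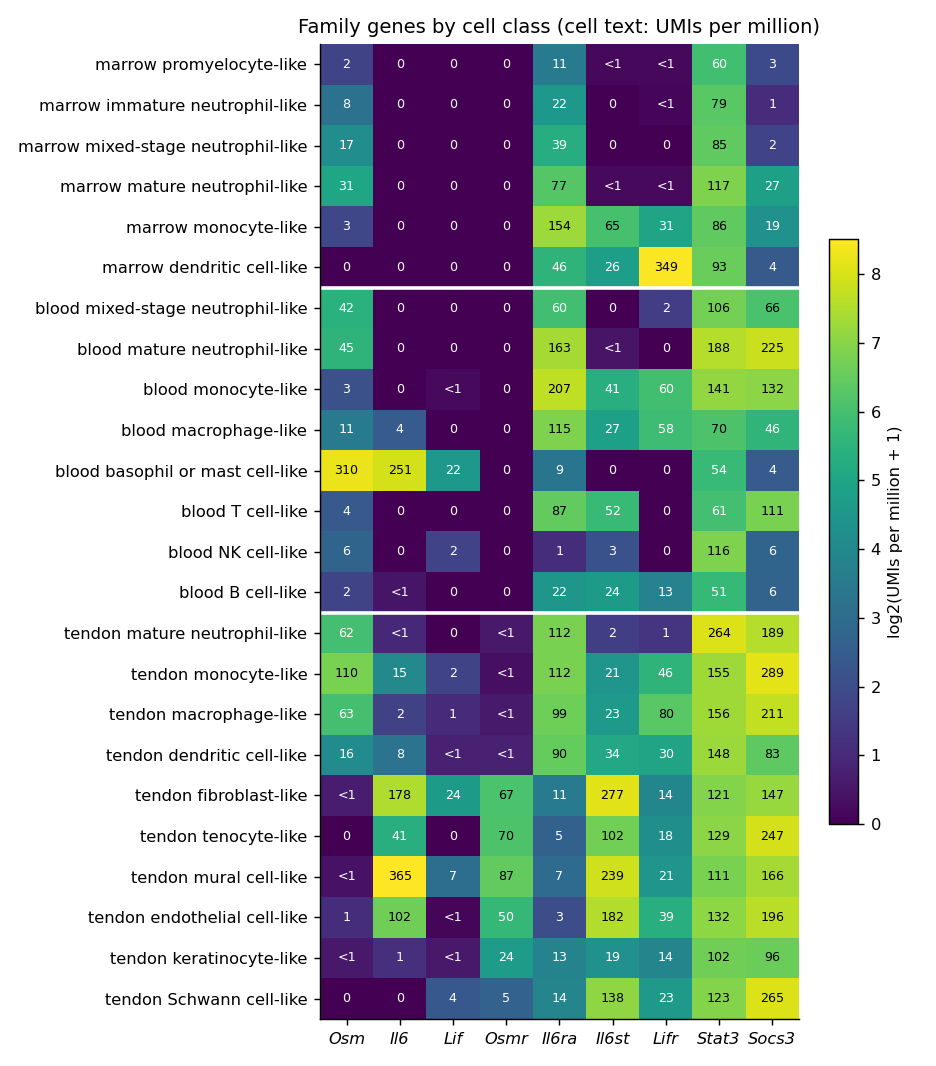
Rows are the 24 cell classes of marrow, blood, and tendon, columns are the 9 genes, color is log2(CPM + 1), and the text in each cell is the level in CPM. *Osmr* was at 0 in all marrow and blood classes, *Il6st* was at or near 0 in all neutrophil-like classes, and *Stat3* was present in every class, from 50.6 to 264.2 CPM.

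*Stat3*, the transcription factor downstream of the receptors, was found in all 24 classes. The lowest level was 50.6 CPM (42.2 to 60.2) in blood B cell-like cells, whose interval overlapped that of basophil or mast cell-like cells at 53.8 (27.8 to 94.1). The highest was 264.2 (242.2 to 287.6) in tendon mature neutrophil-like cells, followed by 188.4 (172.4 to 205.5) in blood mature neutrophil-like cells. The gene (chr11:100885098-100939540, minus strand) overlaps *Stat5a* on the opposite strand.

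*Socs3*, the feedback inhibitor, was low throughout marrow and high in most tendon classes. The highest levels were 288.7 CPM (278.6 to 299.1) in tendon monocyte-like cells, 264.6 (228.6 to 304.5) in Schwann cell-like cells, and 246.8 (216.3 to 280.4) in tenocyte-like cells, of which the neighbors overlapped. This order depended on the scaling, since without the 20 most abundant genes in the totals blood mature neutrophil-like cells had 468.3, above the tendon monocyte-like (366.2) and Schwann cell-like (341.9) levels. The Schwann cell-like value combined 534.2 (448.8 to 631.1) in a cluster of 31 cells led by *Mbp* and *Mal* and 117.9 (89.1 to 153.1) in a cluster of 26 cells led by *Ngfr* and *Gap43*. With each cell given equal weight the class value was 460.9. Fibroblast-like cells had 147.3 (142.6 to 152.1).

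Among blood lymphocytes, *Socs3* was a T cell transcript. T cell-like cells had 110.7 CPM (102.9 to 119.0), with 166.4 (150.7 to 183.3) in the cluster led by *Cd4* and *Cd40lg*, 115.5 (85.8 to 152.3) in that led by *Ikzf2* and *Foxp3*, 87.7 (77.1 to 99.4) in that led by *Cd8b1* and *Cd8a*, and 32.2 (21.9 to 45.7) in that led by *Cxcr6* and *Cxcr3*. The same 4 clusters had *Il6st* at 52.1, 37.0, 64.9, and 20.8. NK cell-like and B cell-like cells had 5.71 (1.85 to 13.3) and 5.57 (3.05 to 9.35).

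The *Socs3* promoter is shown because it was the only one of the members' RefSeq windows that held TTCNNNGAA, the motif bound by STAT proteins (both strands searched), which 7.02% of the 32851 windows held. Windows were found for 8 members, with no entry for *Osm*. The 100 bases that begin 200 bases before the RefSeq start, at chr11:117969467-117969566 (GRCm38.p6, minus strand), are given 5′ to 3′ with the match in capitals, beginning 154 bases before the start. It is a match of letters and not measured binding.
Socs3: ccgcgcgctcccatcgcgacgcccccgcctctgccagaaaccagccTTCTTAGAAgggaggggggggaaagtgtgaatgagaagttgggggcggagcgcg

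The first comparison asked how the members differ between stages of marrow neutrophils. *Osm*, *Il6ra*, and *Socs3* were higher in mature neutrophil-like cells, while *Stat3* was nearer to even. *Osm* was 30.8 CPM (26.7 to 35.4) in 453 mature cells and 8.04 (6.60 to 9.71) in 423 immature cells, a ratio of 3.83 (3.02 to 4.89). *Il6ra* was 76.8 (70.3 to 83.8) and 22.1 (19.7 to 24.8), a ratio of 3.47 (3.00 to 4.02). *Socs3* was 27.3 (23.5 to 31.6) and 1.12 (0.625 to 1.84), a ratio of 24.5 (14.4 to 44.6), and *Stat3* was 116.6 and 78.9, a ratio of 1.48 (1.35 to 1.62). Between the clusters of mature cells *Socs3* ranged from 6.01 (3.50 to 9.62) in that led by *Mmp8* to 63.7 (53.3 to 75.5) in that led by *Il1b*, *Clec4d*, and *Prok2*. The immature class held a cluster of 161 cells led by histone genes and a cluster of 50 cells with *Cdc20*, *Cenpf*, and *Aspm* among its leading genes. These are genes of dividing cells, and the part of cell division in the ratios was not tested.

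A gene was counted as higher or lower when its ratio was at least 2-fold and both classes together held 20 UMIs or more. By that rule 3 of the 4 members with enough UMIs were higher in mature cells and 0 were lower. *Socs3*, with 15 UMIs in immature cells, reached 20 only through the mature class. Of 9212 genes, 12.8% were higher and 35.7% were lower, with a median log2 ratio of −0.44, and *Osm* stood 2.38 above that median on the log2 scale. With cells named one by one, 2 members were lower. Of the 7 STAT3-responsive genes with enough UMIs, all were higher in mature cells, among them *Junb*, *Il4ra*, *Fosl2*, and *Bcl3*. *Socs3* is itself in that list, which was chosen with earlier results of these data known. *Junb* is also in a list of genes that respond to tissue digestion and in the study's list of neutrophil maturation genes. The stages were named from marker genes, so the genes that define them had to differ, whereas the members were kept out of clustering.

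The second comparison followed mature neutrophil-like cells from marrow to blood. *Socs3* was the member with the largest ratio. It was 225.5 CPM (207.9 to 244.1) in 329 blood cells, against the marrow value of 27.3, a ratio of 8.25 (6.98 to 9.80). That marrow value pools mature clusters that differed in *Socs3*, as given above, with the highest in the cluster led by *Il1b*, *Clec4d*, and *Prok2*. The part of this make-up in the ratio was not tested. *Il6ra* had a ratio of 2.12 (1.86 to 2.41), from 76.8 to 162.8, *Stat3* 1.62 (1.44 to 1.81), and *Osm* 1.47 (1.16 to 1.85), from 30.8 to 45.2 (37.6 to 54.0). In this comparison 2 of 4 members were higher and 0 lower, and of 7143 genes 11.3% were higher and 9.52% lower, with a median log2 ratio of 0.12. Of 8 STAT3-responsive genes 4 were higher, namely *Socs3*, *Junb*, *Il4ra*, and *Fosl2*, and 0 were lower.

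Genes that respond to cell handling moved in the same comparison. Of the 8 digestion-responsive genes with enough UMIs, a list that holds the immediate early genes *Fos*, *Jun*, and *Egr1*, 7 were higher in blood than in marrow, and the summed level of the 10-gene list was 2302 CPM in blood and 448 in marrow mature neutrophil-like cells, although neither tissue was digested. Among all genes with enough UMIs, 11.3% were higher in blood. The part of the digestion-responsive genes in the *Socs3* value was not tested. The immature marker list summed to 4107 CPM in blood and 44371 in marrow mature neutrophil-like cells, and all 12 mature markers were present in both. The monocyte marker list summed to 641 in blood and 1090 in marrow, against 6194 in blood monocyte-like cells. When the 20 most abundant genes were left out of the totals, or ratios were centred on the median gene, 1 member in place of 2 was higher.

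The third comparison set mature neutrophil-like cells of the tendon site beside those of blood. No member reached a 2-fold ratio in either direction among the 4 with enough UMIs, while 15.4% of 6235 genes were higher and 16.1% lower, with a median log2 ratio of −0.13. With cells named one by one, 1 member was higher. *Osm* was 62.0 and 45.2 CPM, a ratio of 1.37 (1.06 to 1.77), *Stat3* 264.2 and 188.4, a ratio of 1.40 (1.24 to 1.59), and *Il6ra* 111.5 and 162.8, a ratio of 0.685 (0.581 to 0.806). *Socs3* was 188.9 (170.4 to 208.8) and 225.5, a ratio of 0.838 (0.735 to 0.954), and its direction turned with the clustering, to log2 ratios of 0.17 at a resolution of 0.5 and 0.0899 when cells were named one by one.

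The other genes listed as inhibitors lay further from even in these cells. *Socs1*, *Cish*, and *Ptpn2* were higher in tendon cells, with 25 and 5, 20 and 1, and 100 and 52 UMIs, while *Pias3*, which binds STAT3, was lower with 7 and 43. Their ratios were 6.68 (2.51 to 22.4) for *Socs1*, 26.7 (4.28 to 1108) for *Cish*, 2.57 (1.82 to 3.67) for *Ptpn2*, and 0.218 (0.0826 to 0.488) for *Pias3*. *Socs1* and *Cish* reached 20 UMIs only through tendon cells and *Pias3* only through blood cells, so the rule could place each on 1 side only. Of 9 STAT3-responsive genes with enough UMIs, 4 were higher (*Junb*, *Pim1*, *Timp1*, and *Saa3*) and 0 lower, beside 15.4% and 16.1% of all genes. *Pim1* was at 1235 and 236 CPM. The digestion-responsive list summed to 4321 and 2302 CPM, with 6 of its 9 genes higher and *Fos* lower, and its part was not tested. Markers of tissue cells were also present in the tendon neutrophil-like cells, where the fibroblast list summed to 116.0 CPM (7 of 8 genes) and the keratinocyte list to 104.1 (8 of 8), with both lists at 0 in blood. The macrophage list summed to 351 in tendon and 198 in blood, where *Mrc1*, *Trem2*, *Folr2*, and *Cd163* were at 0. The part of these cells in the values of *Timp1* and *Saa3*, which were higher in stromal than in immune classes, was not tested. A shallow, unnamed tendon cluster of 105 cells (median 2189 UMIs) with 9 mature neutrophil markers had *Osm* at 56.3 and *Socs3* at 333.6 (263.3 to 416.9).

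**Figure D4:**
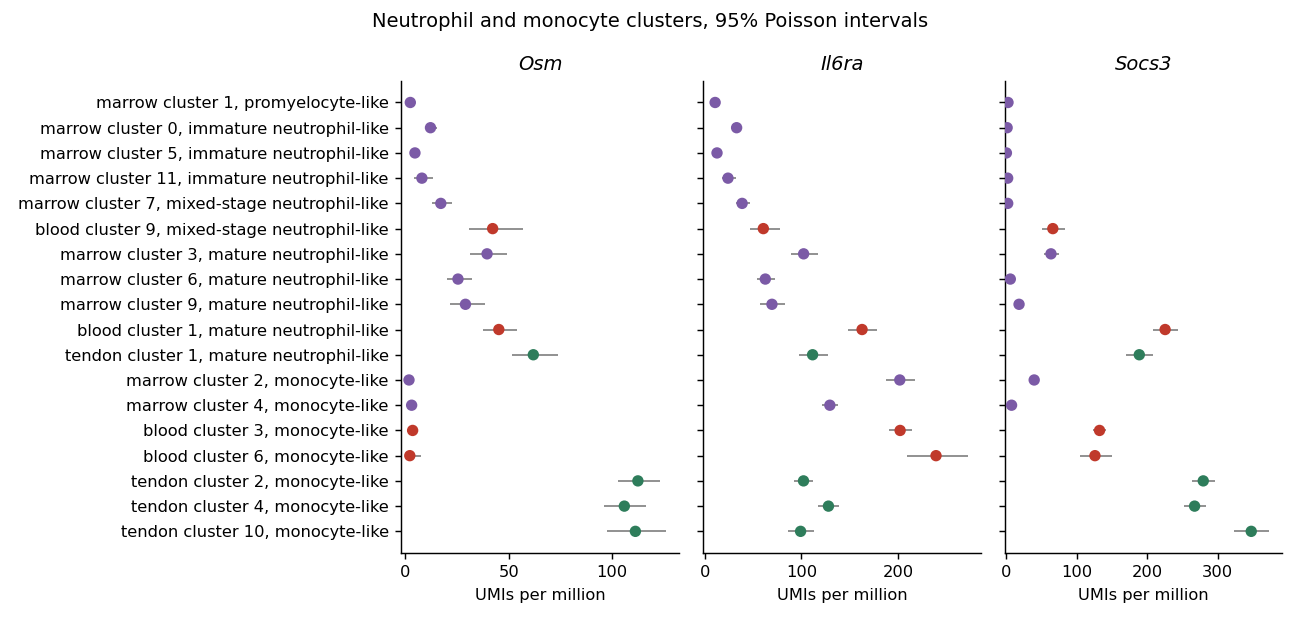
*Osm*, *Il6ra*, and *Socs3* in CPM (UMIs per 1000000, x axis, linear) for each promyelocyte-, neutrophil-, and monocyte-like cluster (y axis), with marrow in purple, blood in red, tendon in green, and 95% Poisson intervals as bars. *Osm* was between 106.1 and 112.7 in all 3 tendon monocyte-like clusters and between 1.71 and 3.47 in the 4 monocyte-like clusters of marrow and blood.

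The fourth comparison set monocyte-like cells of the tendon site beside those of blood, and here the ligands stood out. *Osm* was 109.8 CPM in 992 tendon cells and 3.27 in 423 blood cells (1167 and 22 UMIs), a ratio of 33.5 (22.0 to 53.7). The separation held for every cluster, since the tendon clusters had 112.7, 106.1, and 111.4 and the blood clusters 3.47 and 2.10. *Il6* had 162 UMIs in tendon cells, at 15.2, and 0 in blood cells, which makes it at least 34.1-fold higher with a floor of 3 counts for the blood class. Most of these UMIs lay in the tendon cluster led by *Plac8*, *Ly6c2*, and *Chil3*. *Lif* had 25 and 1 UMIs, a ratio of 15.8 (2.59 to 649). The fibroblast marker list summed to 68.4 CPM in tendon and 0 in blood monocyte-like cells. The part of such stromal RNA in the *Il6* and *Lif* values was not tested.

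The receptor genes of the same cells were level or lower at the tendon site. *Il6ra* was 111.6 and 207.5 CPM, a ratio of 0.538 (0.497 to 0.582), and *Il6st* was 20.8 and 40.8, a ratio of 0.510 (0.425 to 0.611). *Lifr* had a ratio of 0.761 (0.665 to 0.870) and *Stat3* one of 1.11 (1.02 to 1.20). *Socs3* was 288.7 and 131.6 (123.0 to 140.5), a ratio of 2.19 (2.04 to 2.37). By the 2-fold rule 4 of 8 members were higher (*Osm*, *Il6*, *Lif*, and *Socs3*) and 0 lower. *Il6* and *Lif* reached the UMI minimum of that rule only through tendon cells, so it could call them only higher. Of 10420 genes 11.1% were higher and 18.6% lower, with a median log2 ratio of −0.26. With cells named one by one, 2 members rather than 4 were higher. *Il6st* and *Il6ra* lay close to the 2-fold line, and 1 member was counted as lower under 4 of the alternatives tried.

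The rest of the pathway was mixed in monocyte-like cells. *Clcf1*, another ligand of the family, was higher at the tendon site with 262 and 7 UMIs, a ratio of 23.7 (11.3 to 59.4), and *Il27* was lower with 8 and 51 UMIs, a ratio of 0.0992 (0.0406 to 0.211). The inhibitors *Socs1* and *Cish* were higher, with ratios of 12.8 (6.59 to 28.4) and 18.1 (8.16 to 50.1), and the kinase *Tyk2* was lower at 0.386 (0.309 to 0.481). *Clcf1* reached the UMI minimum for a call only through tendon cells and *Il27* only through blood cells. The wide intervals of *Socs1* and *Cish* place their blood counts below that minimum too. The rule could therefore call *Clcf1*, *Socs1*, and *Cish* only higher and *Il27* only lower. Of 10 STAT3-responsive genes, 7 were higher and 0 lower, with a median log2 ratio of 1.18, beside 11.1% and 18.6% of all genes. Among the 7 were *Socs3*, already counted as a member, and *Junb*, which is also in the digestion-responsive list. Of 10 digestion-responsive genes, 9 were higher, and the list summed to 4532 and 1017 CPM.

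Cell identity also shifted between these classes. The largest tendon monocyte-like cluster, of 397 cells, was led by class II genes (*H2-Aa*, *H2-Ab1*, and *H2-Eb1*), which also led the tendon dendritic cell-like cluster. A blood cluster of 114 cells was led by *Cd300e*, *Ace*, and *Treml4*. The macrophage marker list summed to 8810 CPM in tendon and 1846 in blood monocyte-like cells, and the monocyte list to 4735 and 6194, with all 12 genes of each list present in both. The mature neutrophil list summed to 1091 and 4284. The part of maturation and of digestion in the *Osm* difference was not tested. The ratios of *Il6ra*, *Il6st*, *Lifr*, and *Socs3* are those of these mixed classes, and the part of their make-up was not tested. With only the cluster highest in *Ly6c2* used from each tissue, the blood cluster of 309 cells and the tendon cluster of 380 cells had *Osm* at 3.47 (2.12 to 5.36) and 106.1 (96.4 to 116).

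**Figure D5:**
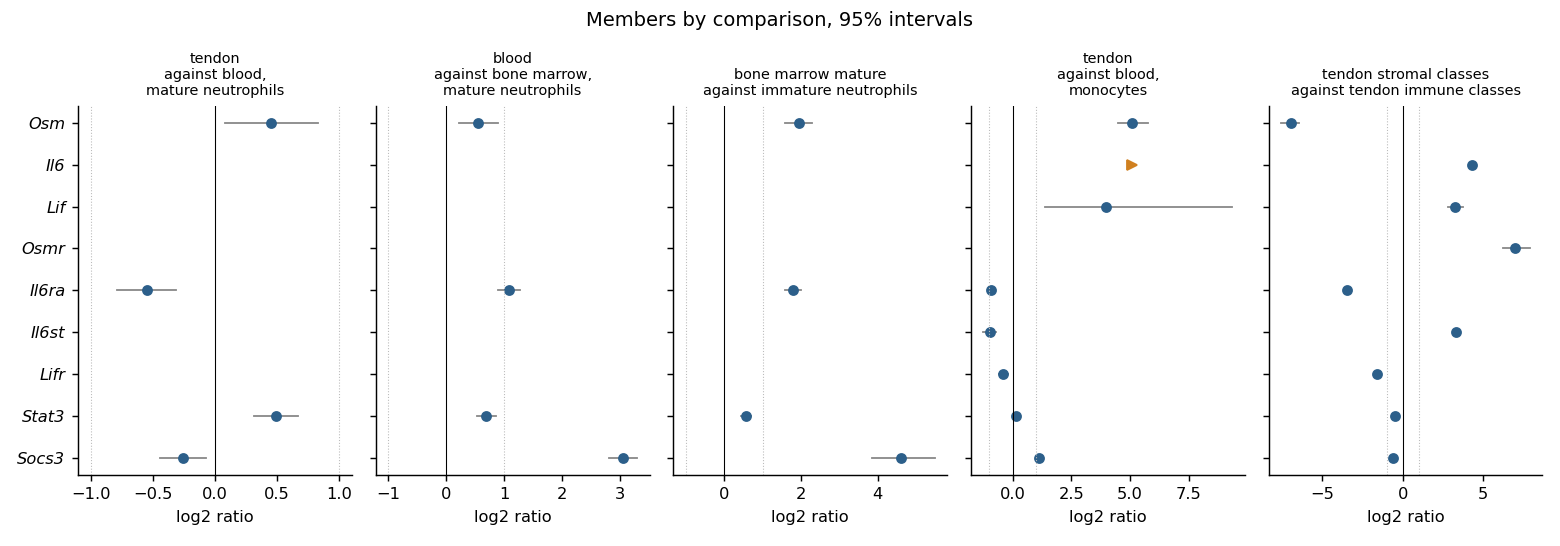
Log2 ratios (x axis, each panel with its own range) of the members with at least 20 UMIs in both classes together, for the 5 comparisons, with 95% intervals from the exact binomial split as lines, dotted lines at a 2-fold ratio, and an orange arrowhead for the lower limit of *Il6*. The monocyte-like cells differed most in *Osm* (ratio 33.5) and *Il6* (at least 34.1), whereas in tendon against blood neutrophil-like cells every point lay between the dotted lines.

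The fifth comparison divided the cells of the tendon site itself, where 1332 stromal cells and 2662 immune cells were compared. *Osm* and *Osmr* separated by compartment, whereas *Il6*, *Lif*, and the shared chain *Il6st* were all higher in the stroma. *Osm* was 0.625 CPM in stromal and 77.7 in immune classes (29 and 2240 UMIs), and *Osmr* was 57.1 and 0.451, a ratio of 126.6 (73.9 to 238.2). *Il6* was 140.5 and 7.22, a ratio of 19.5 (17.0 to 22.5), *Lif* 13.9 and 1.46, a ratio of 9.51 (6.96 to 13.3), and *Il6st* 207.4 and 21.2, a ratio of 9.78 (9.01 to 10.6). *Il6ra* ran the other way at 9.38 and 103.9, a ratio of 0.0903 (0.0814 to 0.0998), and so did *Lifr* at 19.3 and 59.3, a ratio of 0.325 (0.300 to 0.353). *Stat3* and *Socs3* were within 2-fold, with ratios of 0.731 and 0.659.

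By the 2-fold rule 4 members were higher in the stroma and 3 lower. Of 15008 genes, 39.7% were higher and 16.6% lower, with a median log2 ratio of 0.58, so on this scaling higher calls were the more common ones in general. *Osmr* stood 6.40 above that median on the log2 scale. When ratios were centred on it, 5 members were lower, since *Stat3* and *Socs3* then passed the line.

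Other genes of the family were also measured at the tendon site. *Il11*, an IL-6-type cytokine, was 233.2 CPM in tenocyte-like, 150.2 in mural cell-like, and 80.6 in fibroblast-like cells, and its ratio between stromal and immune classes was 33.0 (25.1 to 44.2). *Clcf1* was 73.6 in Schwann cell-like cells and 24.7 in tendon monocyte-like cells. *Il11ra1*, whose counts are uncertain because the mouse has near-identical copies of this gene, was 281.3 in tenocyte-like and 259.3 in fibroblast-like cells. In all, 6 of 8 receptor genes with enough UMIs, *Il11ra1* and *Osmr* among them, were higher in the stroma. The other 2 were lower, beside 39.7% of all genes higher and 16.6% lower. *Osmr* had enough UMIs only through the stromal classes. The sheddase *Adam17*, which releases soluble IL-6 receptor, was lower in the stroma at 27.0 and 91.5 CPM, and *Adam10* was within 2-fold.

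Of 11 STAT3-responsive genes, 4 were higher and 4 lower in stromal classes, beside the 39.7% and 16.6% of all genes. *Timp1*, *Serpina3n*, *Saa3*, and *Myc* were higher, with *Timp1* at 2422 and 62.9 CPM. *Bcl3*, *Junb*, *Pim1*, and *Fosl2* were lower, with *Pim1* at 79.4 and 596.2. *Timp1* inhibits matrix metalloproteinases, *Serpina3n* inhibits serine proteases, and *Pim1* is a kinase.

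Genes whose pattern over the 24 classes was most like that of a member were sought among 12470 genes with at least 200 UMIs, by Pearson correlation of log2(CPM + 1). These correlations are descriptions, since classes of a tissue share a library and depth. For *Osm* they were *Lilr4b* (r = 0.90), *Lilrb4a* (0.85), *Tnfsf14* (0.85), *Rab8b* (0.83), and *Cnppd1* (0.82), of which *Lilr4b* and *Lilrb4a* are near-identical copies that can share reads. For *Osmr* they were *Tbx3* (0.99), *Ptprg* (0.98), *Meis2* (0.98), *Msrb3* (0.98), and *Peg3* (0.98). For *Il6* they were *Igfbp7* (0.86), *Smarca1* (0.86), *Maob* (0.83), *Gpc4* (0.83), and *Mylk* (0.81). For *Socs3* they were *Junb* (0.88), *Dusp1* (0.86), *Fos* (0.86), *Cbr3* (0.81), and *Samd4b* (0.80), and the first 3 of these are also in the digestion-responsive list.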

How the data were processed

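Raw UMI counts of 3 single-cell libraries (10x 3′ chemistry) were deposited by the authors as gene-by-cell matrices, and per the file headers Cell Ranger 5.0.1 produced them. The submitters' processing notes name mm10, and the counts are not normalized. The libraries held 1855 cells and 49580625 UMIs (marrow), 2241 and 22542581 (blood), and 5629 and 90621052 (tendon). Other data of the study were not analysed here. The members and gene lists were chosen with earlier results of these data known.

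Cells with fewer than 200 genes or more than 20% mitochondrial UMIs were left out (15, 57, and 651 cells), and the highest Scrublet scores (scanpy 1.11.5) were removed at 0.8% of cells per 1000 cells (27, 38, and 198 cells), because the automatic threshold marked only 6 tendon cells. Each library was clustered in Seurat 5.3.0 (R 4.3.3) with 30 components, 2000 variable features without the members and listed genes, and resolution 1. A cluster was given the class whose marker list was best represented in its 200 leading genes, with at least 3 present. It stayed unnamed if another class had more markers among its 10 leading genes, or if it was shallow with none of its own there. These rules, and the staging of neutrophils by which marker list led, were settled after the clusters were seen, and names may differ from the study's. Genes were summed per class of at least 20 cells, apart from the smaller basophil or mast cell-like groups named one by one. A class at 0 was given a floor of 3 counts over the class, and its upper limit is those 3 counts. The 95% interval of a ratio treats the UMIs of both classes as an exact binomial split. Cells are not replicates, so 1 library per tissue allows no test. Thinning drew 1000 UMIs per cell. Genes named are the members, the listed genes (*Cebpd* was not analysed here, nor were the markers *Trac*, *Trbc2*, *Ighm*, *Ighd*, and *Igha*), and the 5 most alike to *Osm*, *Osmr*, *Il6*, and *Socs3*. Gene positions came from GENCODE M21 by identifier. Some listed genes are not reported here. The ratios and intervals were run on simulated Poisson counts, the counting error they assume. That run had no variation between cells or libraries and so cannot speak to it. Alternatives changed the filter, doublets, resolution, integration, variable features, naming, totals, centring, cell weights, and thinning, 13 in all, with 3 more chosen after seeing the data. Python 3.11.15, numpy 2.4.6, scipy 1.17.1, pandas 2.3.3, and matplotlib 3.10.9 were used.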

Additional observations from a re-analysis of the deposited data

Results flagged for a closer look

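*Socs3* went opposite ways at the tendon site against blood in 2 cell classes. Its log2 ratio was −0.26 in mature neutrophil-like cells and 1.13 in monocyte-like cells. With 1 library per tissue the difference between the classes was not tested, and the neutrophil value changed sign with the clustering.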

How the results depend on the processing

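With 1 library per tissue, no library could be left out. No paired analysis was possible because no comparison came from a replicated test and each tissue had 1 library. The log2 ratios of 7 results were recomputed under every alternative except the other thinning depths, which do not enter them. Of 98 values, 89 stayed within the counting interval, 7 moved, and 2 reversed. Both reversals were of *Socs3* in tendon against blood mature neutrophil-like cells (−0.26), which became 0.17 at a resolution of 0.5 and 0.0899 with cells named one by one. The same log2 ratio became −0.45 at a resolution of 2, −0.00639 with anchor integration, and −0.47 without the 20 most abundant genes in the totals. The cause was not tested. The log2 ratio of *Osm* in mature to immature marrow cells went from 1.94 to 2.38 when centred on the median gene, and the stromal to immune log2 ratio of *Osmr* went from 6.98 to 5.80 with anchor integration. The stromal to immune log2 ratio of *Il6* went from 4.28 to 4.06 with no cell filter and 3.70 when centred.

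Of 260 counts of members and STAT3-responsive genes past 2-fold, 247 stayed within 1.5 times. With cells named one by one, 1 member rather than 0 was higher in tendon than blood neutrophil-like cells, 2 rather than 0 were lower in mature than immature marrow cells, and 2 rather than 4 were higher in tendon than blood monocyte-like cells. Members higher in blood than marrow neutrophil-like cells fell from 2 to 1 without the 20 most abundant genes and when centred. Members lower in tendon monocyte-like cells rose from 0 to 1 with the stricter cell filter, at a resolution of 0.5, with anchor integration, and with only the clusters highest in *Ly6c2*, an alternative chosen after seeing the data. STAT3-responsive genes lower in mature marrow cells rose from 0 to 1 at a resolution of 0.5, with anchor integration, and with cells named one by one. Members lower in the stroma rose from 3 to 5 when centred.

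Of 234 levels, 191 stayed within their interval and 43 moved. Leaving the 20 most abundant genes out of the totals raised *Osm* in tendon neutrophil-like cells from 62.0 to 111 CPM and *Socs3* in blood neutrophil-like cells from 225.5 to 468.3. All 8 thinned shares moved with the thinning depth of 500 or 2000 UMIs. Centring changed the split of all called genes, from 1156 higher and 1943 lower to 1462 and 1321 in monocyte-like cells, from 1177 and 3285 to 1920 and 2448 between marrow stages, and from 5952 and 2492 to 4570 and 3744 between stromal and immune classes. Without the 20 most abundant genes the split went from 959 and 1004 to 803 and 1408 in tendon against blood neutrophil-like cells, and from 810 and 680 to 556 and 908 in blood against marrow. Depth limits *Lif* and *Osmr* in leukocyte classes and *Il6st* in neutrophil-like cells, where counts were between 0 and 25.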
